A study of Mus musculus with 10 samples.

Results

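The natural ligands of TLR7, guanosine nucleosides together with a uridine-rich ssRNA, were set against the synthetic TLR7 agonist R848 in mouse bone marrow–derived macrophages (BMDMs). The members are the 2 libraries of PNPi+dG/rG+polyU, called the ligand pair below, and the 2 libraries of R848, which make 4 of the 10 libraries of the series. Genes with at least 1 CPM (counts per 1000000 reads on genes) in at least 2 of the 10 libraries were compared, which kept 11978 of 55573 genes. All BMDMs were WT cells from female C57BL/6 mice, kept in M-CSF and treated for 4 h. The ligand pair consisted of 5 μg polyU, a ssRNA of uridines complexed with the lipid carrier DOTAP, with 1 μM ulodesine, an inhibitor of purine nucleoside phosphorylase (PNPi), 5 μM deoxyguanosine (dG) and 5 μM guanosine (rG). R848 was given at 1 ng/mL without DOTAP, ulodesine or nucleosides. The other groups were vehicle, polyU without nucleosides, and PNPi+dG/rG without polyU, with 2 libraries each. The agents were given at 1 dose and 1 time each, so the comparison is of these treatments as they were given and not of ligands at matched potency, and the carrier cannot be told apart from the RNA it carried.

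TLR7 is an endosomal receptor of ssRNA. It has one binding site for guanosine or deoxyguanosine and another for short uridine-containing RNA, and both natural ligands are needed for strong signaling, while imidazoquinolines such as R848 occupy the nucleoside site and activate the receptor without RNA. In macrophages TLR7 signals through MyD88 to NF-κB, AP-1 and IRF factors, and type I IFN released in response acts back on the cells through IFNAR and STAT factors to induce IFN-stimulated genes.

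The reads on genes, in units of 1000000, numbered 14.1 to 32.7 in the 4 libraries, and those of the ligand pair were the shallowest of the series, at 14.1 and 14.2. A floor of 3 reads in a library, below which no level is given, was 0.0781 to 0.212 CPM across the libraries, and this limit covers counting error only. The labels number the libraries as biological replicates but do not say whether they came from separate animals, so p-values measure the spread between these libraries. Macrophage markers were high in all libraries. The summed CPM of 10 of them (among them Adgre1, Csf1r, Cd68 and Lyz2) was 17648 and 17666 with the ligand pair, 19587 and 20032 with R848, and 18391 and 18848 with vehicle.

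Both R848 libraries stood apart from the other 8 in transcripts that macrophages are not known for. The summed CPM of 10 fibroblast markers was 152 and 161 in the R848 libraries and between 0.618 and 5.35 in the others. Altogether 58 genes had at least 1 CPM in both R848 libraries and at most 3 reads in each of the other 8, and no gene had that pattern for the libraries of the ligand pair or of vehicle. The same libraries were lowest in transcripts of dividing cells, as the plot of summed list levels shows. Dates of culture and handling were not analysed here, and a difference between the cultures cannot be told apart from the treatment, and neither R848 library can serve as a check on the other because both carry these features. In bulk RNA, fewer cells of a type and less RNA per cell cannot be told apart either. The part of these features in the other differences was not tested.

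**Figure D1:**
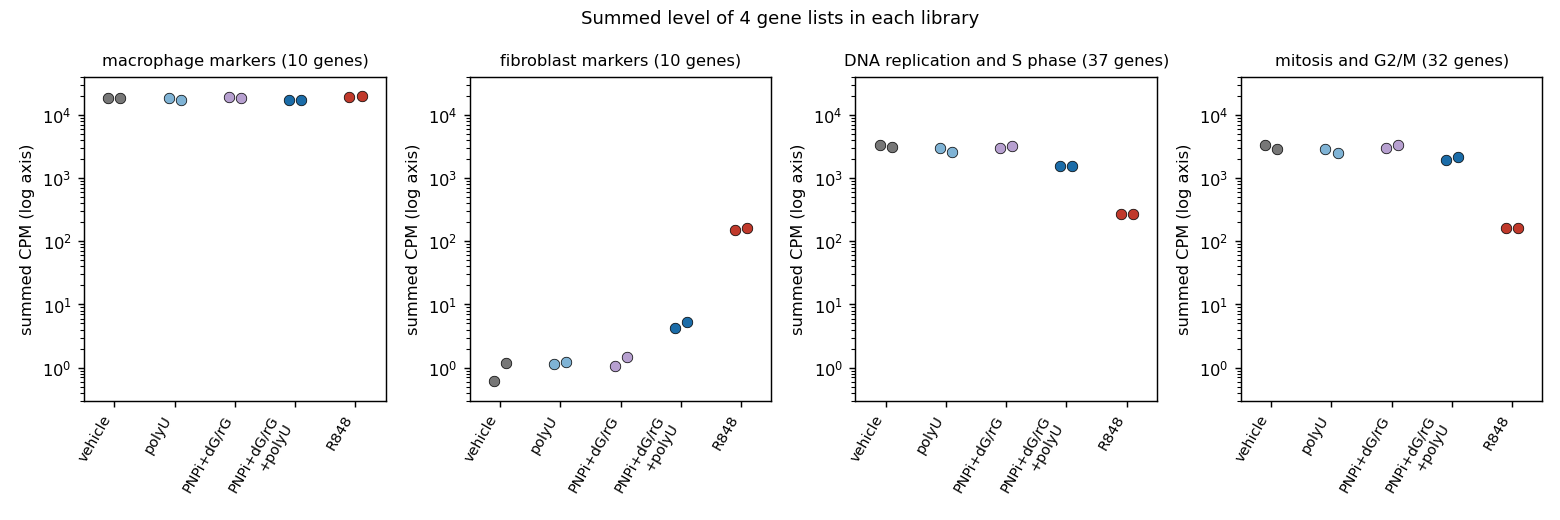
Summed CPM (log axis, the same in each panel) of macrophage markers, fibroblast markers, DNA replication and S phase genes, and mitosis and G2/M genes, with 1 point per library and 2 libraries per group. The R848 libraries have the highest fibroblast sums, 152 and 161, and the lowest cell cycle sums, while the macrophage sums of all libraries lie within 17648 to 20032.

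The ligand pair and R848 differed in 2481 of 11978 genes (20.7%) at an adjusted p under 0.05 from limma and at least 2-fold. Of these, 2019 genes (16.9%) were higher with the ligand pair and 462 (3.86%) were higher with R848. The typical gene was also higher with the ligand pair, with a median log2 difference of 0.31 over all genes tested, so the split depends on how the libraries are scaled. With the median log2 CPM of the tested genes set equal in all libraries (the centred scale below), that median was -0.07 and 2046 genes differed, 1194 higher with the ligand pair and 852 higher with R848. The centred counts of gene lists below stand beside these numbers of the 11978 genes. All 462 genes called higher with R848 on the deposited scale were also called on the centred scale, as were 1194 of the 2019, and 0 genes were called in opposite directions. At least 10-fold differences were seen for 256 genes higher with the ligand pair and 76 higher with R848. Among the 7091 genes with at least 10 CPM in all 4 libraries, 395 (5.57%) were higher with the ligand pair and 205 (2.89%) with R848. Most of the difference in number between the directions therefore lay in genes that were low in at least 1 of the 4 libraries.

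**Figure D2:**
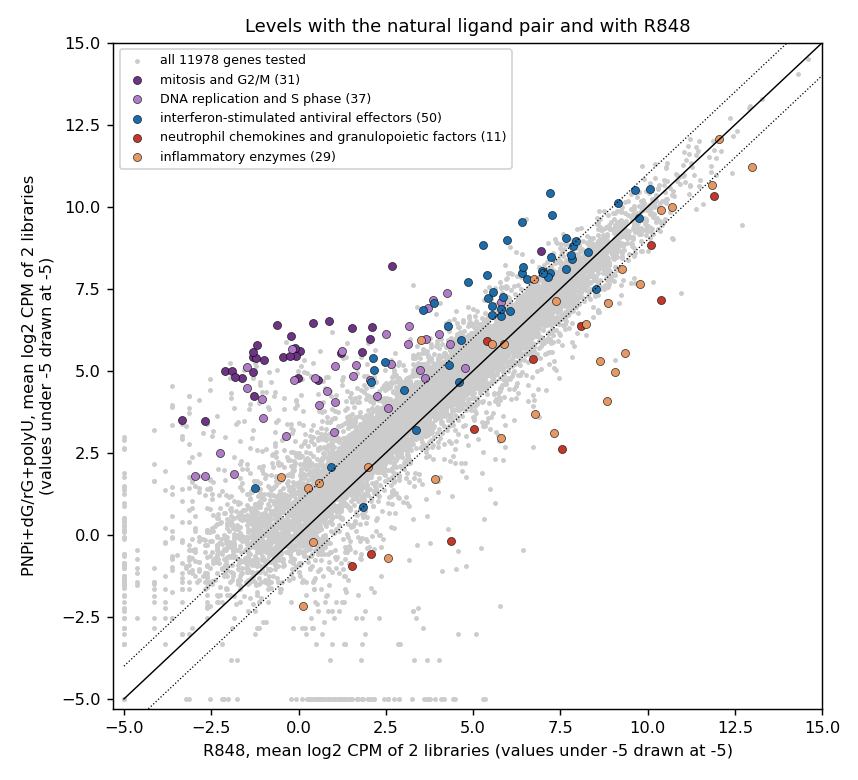
Mean log2 CPM of 2 libraries with R848 (x axis) and with the ligand pair (y axis) for the 11978 genes tested, with 5 gene lists in color. The solid line marks equal levels and the dotted lines a 2-fold difference. The 31 mitosis and G2/M genes lie above the line, and most neutrophil chemokines and inflammatory enzymes lie below it.

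Set beside vehicle, 973 genes (8.12%) rose and 1712 (14.3%) fell with the ligand pair, 2685 (22.4%) in all. With R848, 1065 genes (8.89%) rose and 3633 (30.3%) fell, which makes 4698 (39.2%). These comparisons share the vehicle libraries. Of the 2019 genes higher with the ligand pair than with R848, the mean vehicle level was above both treatments in 1478 (73.2%), between them in 398 and below both in 143. By calls, 1095 of the 2019 were lower than vehicle with R848 and not called with the ligand pair, 553 were lower in both, 137 were higher with the ligand pair alone and 60 were higher in both. Of the 462 genes higher with R848, vehicle lay below both treatments in 239 (51.7%), between them in 166 and above both in 57. By calls, 171 of the 462 were higher than vehicle with R848 alone, 130 were higher in both, and 74 were lower than vehicle with the ligand pair alone. On the deposited scale, a gene that was higher with the ligand pair was thus most often one that stood further below its vehicle level with R848. Vehicle above both treatments was also the most common order among all genes tested (58.7%, with 20.2% between and 21.2% below both). A gene that was higher with R848 most often stood above vehicle.

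**Figure D3:**
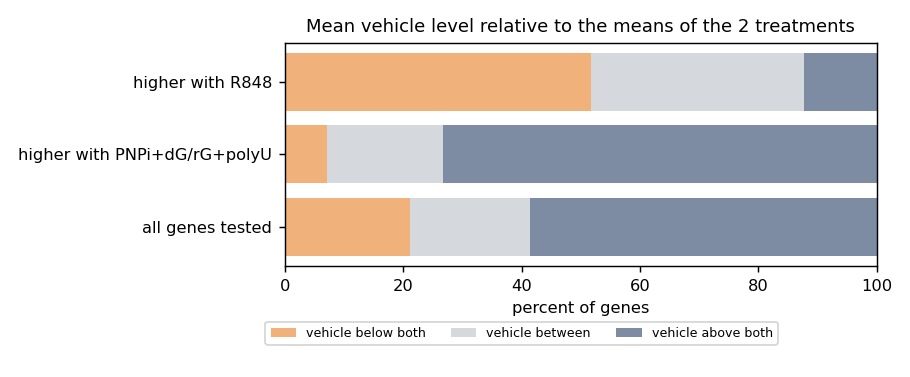
Share of genes (percent, x axis) whose mean vehicle level lay below, between or above the means with the ligand pair and with R848, for all 11978 genes tested, the 2019 higher with the ligand pair and the 462 higher with R848. Vehicle was above both treatments for 58.7% of all genes tested, for 73.2% of the genes higher with the ligand pair and for 12.3% of those higher with R848.

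IFN-stimulated antiviral effectors were higher with the ligand pair. Of 50 tested, 31 were called higher with the ligand pair and 1, Ifitm2, higher with R848, beside 16.9% and 3.86% of all genes, and their median log2 difference was 1.24 against 0.31 for all genes. On the centred scale 23 were higher and 2 lower. The call of Ifitm2 was lost without replicate 1 of the ligand pair or replicate 2 of R848. Against vehicle, 39 of the 50 were higher with the ligand pair and 22 with R848, beside 8.12% and 8.89% of all genes. The median log2 differences were 2.41 and 0.73. On the centred scale 42 were higher than vehicle with the ligand pair and 35 with R848, beside 1192 and 1792 of the 11978 genes. The medians there were 2.62 and 1.32. Mx1, an IFN-stimulated GTPase gene, had 482 and 440.2 CPM with the ligand pair, 35.9 and 41.98 CPM with R848 and 11.4 and 9.38 CPM with vehicle. It was 11.9-fold higher with the ligand pair than with R848 (log2 difference 3.57, SE 0.11, adjusted p = 2.46e-11). The level with polyU alone, 136 and 159 CPM, was also above both R848 libraries. Rsad2, which encodes the antiviral enzyme viperin, had 1415 and 1347 CPM with the ligand pair, 146 and 146 with R848, 603 and 737 with polyU and 72.7 and 59.6 with vehicle (log2 difference between the treatments 3.24, SE 0.15, adjusted p = 3.6e-06). Both genes were called higher than vehicle also with R848, by 1.91 and 1.15 on the log2 scale. Ifit3b, of the family that binds viral RNA, had 44.03 and 39.9 CPM with the ligand pair and 3.98 and 4.90 with R848, the latter within the range of its vehicle level of 5.16 and 3.60 CPM (log2 difference between the treatments 3.25, SE 0.17, adjusted p = 6.5e-10). Slfn9 differed in another way, since its 120.3 and 110.3 CPM with the ligand pair lay near the 125 and 106 CPM of vehicle and it fell to 10.7 and 12.95 CPM with R848 (log2 difference 3.29, SE 0.16, adjusted p = 1.35e-06). Ifit3b and Slfn9 have close paralogs, among which reads may be divided.

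The promoters of 2 of the genes that were higher with the ligand pair, Rsad2 and the chemokine gene Cxcl10, are shown because they carry the IFN-stimulated response element (ISRE), the DNA letters that the IFN-activated complex of STAT and IRF factors binds. Pairs of the letters GAAA with 2 bases between them were searched on both strands in the 250 bases before each RefSeq start (GRCm38.p6), and matches are in capitals, written 5′ to 3′ on the strand of the gene. The Rsad2 window is chr12:26456453-26456702 on the minus strand, and that of Cxcl10 is chr5:92348890-92349139 on the minus strand.
Rsad2: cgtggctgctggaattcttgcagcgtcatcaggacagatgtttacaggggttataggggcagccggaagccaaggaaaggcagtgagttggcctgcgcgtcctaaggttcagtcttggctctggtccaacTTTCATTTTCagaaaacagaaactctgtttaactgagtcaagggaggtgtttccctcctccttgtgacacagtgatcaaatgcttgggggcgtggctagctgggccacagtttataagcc
Cxcl10: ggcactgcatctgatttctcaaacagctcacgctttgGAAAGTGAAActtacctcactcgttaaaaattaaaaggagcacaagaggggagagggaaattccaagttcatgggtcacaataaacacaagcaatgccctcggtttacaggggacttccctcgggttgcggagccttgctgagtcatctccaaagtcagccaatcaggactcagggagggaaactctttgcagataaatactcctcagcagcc
Of the 31 effectors higher with the ligand pair, 24 had a promoter window and 12 of these (50.0%) held the ISRE letters. Among the 18 that were not called, 15 had a window and 6 (40%) held them, and among all 27025 genes with a window the share was 3.46%. The letters were thus common in the list whether or not a member differed. A match is a string of letters and no measured binding.

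Cytosolic sensors of nucleic acids and the GTPases that act on intracellular pathogens moved with the antiviral effectors. Of 19 sensors tested, 11 were higher with the ligand pair and 0 with R848, beside 16.9% and 3.86% of all genes (median log2 difference 1.14, 7 higher on the centred scale). Of 15 guanylate-binding proteins and immunity-related GTPases, 10 were higher with the ligand pair and 0 with R848 (median 1.76, 9 higher on the centred scale). Cgas, which makes cGAMP on sensing DNA, had 55 and 46.8 CPM with the ligand pair and 10.8 and 12.7 CPM with R848 around a vehicle level of 35.5 and 31.97 (log2 difference 2.11, SE 0.09, adjusted p = 2.75e-11). Its log2 difference from vehicle was -1.52 with R848, which was called, and 0.59 with the ligand pair, which was not. On the centred scale these were -0.93 and 0.80, and neither was called. Dhx58, which encodes the RNA sensor LGP2, had 186 and 189 CPM with the ligand pair and 51.1 and 61.7 with R848, and vehicle had 50.4 and 44.4 (log2 difference 1.74, SE 0.09, adjusted p = 5.23e-09). With R848 Dhx58 stayed near its vehicle level. Pml, which forms nuclear bodies, had 116 and 112 CPM with the ligand pair and 33.4 and 35.9 with R848 (log2 difference 1.72, SE 0.06, adjusted p = 2.44e-12). Ifi208 had 41.3 and 39.1 CPM against 5.63 and 7.04 (log2 difference 2.67). In each of these 4 genes both libraries of the ligand pair were above both R848 libraries, which follows from their choice as the largest differences of the list. Among the GTPases, Irgm1 had 373 and 379 CPM with the ligand pair and 76.6 and 92.4 with R848, where the R848 values overlapped the vehicle values of 89 and 77.9 (log2 difference 2.16, SE 0.08, adjusted p = 2.49e-10). Irgm2 had 256 and 249 CPM against 58.8 and 69.3 and was higher than vehicle in both comparisons. Iigp1 and Tgtp2, 2 further GTPases, differed by 2.98 and 2.81 on the log2 scale.

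The IFN ligands were hardly seen. Of 20 type I and III IFN genes listed, 18 had 0 reads in all 10 libraries and 1, Ifnb1, passed the filter. Ifnb1, the IFN-β gene, had 19 and 15 reads with the ligand pair, 0 and 3 reads with R848 and 1 and 0 reads with vehicle, so that both libraries of the ligand pair were above the others. It was not called on the deposited scale (adjusted p = 0.0624), where a library without a read stretches the spread, and it was called with a pseudocount of 1 CPM (log2 difference 1.07, SE 0.17, adjusted p = 1.62e-05). Among 22 IFN receptors, STATs and IRFs, 6 (27.3%) were higher with the ligand pair and 3 (13.6%) with R848, beside 16.9% and 3.86% of all genes. On the centred scale the counts were 4 and 6, and the median log2 difference of 0.19 turned to -0.20 there. Irf1 had 261 and 242 CPM with the ligand pair, 62.98 and 69.4 with R848 and 21.5 and 22.2 with vehicle (log2 difference 1.93, SE 0.07, adjusted p = 3.34e-12). Stat2, a subunit of the factor that binds ISREs, had 510.5 and 528 CPM with the ligand pair and 150.5 and 179 with R848 (log2 difference 1.66, SE 0.08, adjusted p = 2.22e-09). Irf5, which acts downstream of TLR7, had 261 and 235 CPM with the ligand pair, near the 273 and 303 CPM of vehicle, and 68.2 and 70.7 with R848 (log2 difference 1.83, SE 0.06, adjusted p = 4.38e-12). Irf1 was called above vehicle with both treatments. Stat2, with 100 and 93.9 CPM in vehicle, was called above it with the ligand pair. With R848 its log2 difference from vehicle was 0.76, under 2-fold, and 1.35 on the centred scale, where it was called. Irf5 was called against vehicle with R848 alone, as lower. Cish, a cytokine-induced inhibitor of JAK-STAT signaling, was the one of the 4 named members that was higher with R848, with 21.7 and 21.6 CPM against 4.88 and 5.63 with the ligand pair (log2 difference -2.04, SE 0.44, adjusted p = 0.000724).

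Several chemokines of monocytes and T cells were higher with the ligand pair. Of 14 CXCR3 ligands and monocyte chemokines, 7 (50%) were higher with the ligand pair and 1 (7.14%) with R848, beside 16.9% and 3.86% of all genes (median log2 difference 0.72, 4 and 2 on the centred scale). Cxcl10, a CXCR3 ligand that attracts T cells, had 805 and 778 CPM with the ligand pair, 91.4 and 93.1 with R848, 199 and 219 with polyU and 11 and 6.91 with vehicle (log2 difference between the treatments 3.10, SE 0.26, adjusted p = 0.000122). Ccl12, a ligand of CCR2, had 53.6 and 58.8 CPM with the ligand pair and 13.9 and 13.96 with R848 (log2 difference 2.01, SE 0.13, adjusted p = 1.48e-09). Both genes were above vehicle with either treatment and highest with the ligand pair. Ccl2, the main monocyte chemokine, had 571 and 702 CPM with the ligand pair, 246 and 255 with R848 and 374 and 334 with vehicle (log2 difference 1.34, SE 0.09, adjusted p = 1.11e-06), and it was not called on the centred scale. The member higher with R848 was Ccl22, with 28.04 and 27.6 CPM against 7.15 and 9.29 (log2 difference -1.77, SE 0.22, adjusted p = 3.57e-06).

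Neutrophil chemokines and granulopoietic factors were higher with R848. Of 11 tested, 6 were called higher with R848 and 0 with the ligand pair, beside 3.86% and 16.9% of all genes, and their median log2 difference was -1.80 (-2.18 on the centred scale). With a pseudocount of 1 CPM, 10 of the 11 were called higher with R848. All 11 were higher than vehicle with R848 and 9 with the ligand pair, beside 8.89% and 8.12% of all genes, and the counts were the same on the centred scale. Cxcl3, a CXCR2 ligand, had 1358 and 1298 CPM with R848, 137 and 149 with the ligand pair and 1.29 and 1.01 with vehicle (log2 difference -3.22, SE 0.13, adjusted p = 7.98e-12). Cxcl3 was thus far above vehicle with both treatments, and the R848 libraries were about an order of magnitude higher. Lif, a cytokine of the IL-6 family, had 20.4 and 21.2 CPM with R848 and 0.991 and 0.774 with the ligand pair (log2 difference -4.57, SE 0.53, adjusted p = 1.54e-06). Osm, of the same family, had 32.4 and 32.8 CPM with R848 and 8.07 and 10.9 with the ligand pair, and only with R848 was it called above its vehicle level of 11.1 and 12.1 (log2 difference between the treatments -1.80, SE 0.14, adjusted p = 1.52e-08). Csf3, which encodes G-CSF, had 189 and 188 CPM with R848 and 6.44 and 5.91 with the ligand pair, and Il6, an acute-phase cytokine, had 279 and 265 CPM with R848 and 76.4 and 87.4 with the ligand pair. The values of the groups did not overlap in either gene, yet neither was called on the deposited scale (adjusted p = 0.235 and 0.619), in which a vehicle library without a read of the gene widened the shared spread. With a pseudocount of 1 CPM both were called, with log2 differences of -4.72 for Csf3 (adjusted p = 1.28e-15) and -1.72 for Il6 (adjusted p = 2.73e-10).

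The promoter of Cxcl3 is shown as that of the neutrophil chemokine with the largest difference, with its κB site, the element that NF-κB binds, in capitals. The window is chr5:90785851-90786100 on the plus strand.
Cxcl3: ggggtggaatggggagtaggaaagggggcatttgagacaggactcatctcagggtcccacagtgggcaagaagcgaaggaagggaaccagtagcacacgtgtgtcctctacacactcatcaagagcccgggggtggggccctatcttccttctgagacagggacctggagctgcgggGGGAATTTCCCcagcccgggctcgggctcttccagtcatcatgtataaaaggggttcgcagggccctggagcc
A κB site was found on either strand in the windows of 6 of the 8 list members that had one, 4 of the 5 among those higher with R848 and 2 of the 3 among those not called, against 8.23% of all genes with a window. The capitals cover 2 overlapping matches.

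Cytokines beyond these went both ways. Of 27 interleukins and TNF family cytokines tested, 6 (22.2%) were higher with the ligand pair and 6 (22.2%) with R848, beside 16.9% and 3.86% of all genes. The median log2 difference was 0.01, and -0.37 on the centred scale. Il1b, the precursor of the fever-inducing cytokine IL-1β, had 6558 and 6751 CPM with R848, 661 and 736 with the ligand pair and 2.13 and 1.97 with vehicle (log2 difference -3.25, SE 0.08, adjusted p = 4.98e-14), so that it was far above vehicle with both and 9.54-fold higher with R848. Il1a, an alarmin of the same family, had 2020.1 and 1954 CPM with R848 and 156 and 173 with the ligand pair (log2 difference -3.59, SE 0.34, adjusted p = 7.95e-05). Il19, of the IL-10 family, had 17.3 and 17.4 CPM with R848 and 4 and 11 reads with the ligand pair, and like Csf3 it was called with a pseudocount of 1 CPM (log2 difference -3.60, adjusted p = 1.09e-12) and not on the deposited scale (adjusted p = 0.197). The libraries of the ligand pair and of R848 did not overlap in any of these 3 genes, which were picked as among the largest differences of the list. In the other direction, Tnfsf10, which encodes the death ligand TRAIL, had 33.6 and 38.5 CPM with the ligand pair, 2.60 and 3.92 with R848 and 2.24 and 1.57 with vehicle (log2 difference 3.49, SE 0.21, adjusted p = 8.62e-10). Tnf itself had 3415 and 3154 CPM with the ligand pair and 2167 and 2064 with R848 above a vehicle level of 53.2 and 56.4. Its log2 difference between the treatments was 0.63 (95% interval 0.47 to 0.79, 0.25 on the centred scale), which is under 2-fold.

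**Figure D4:**
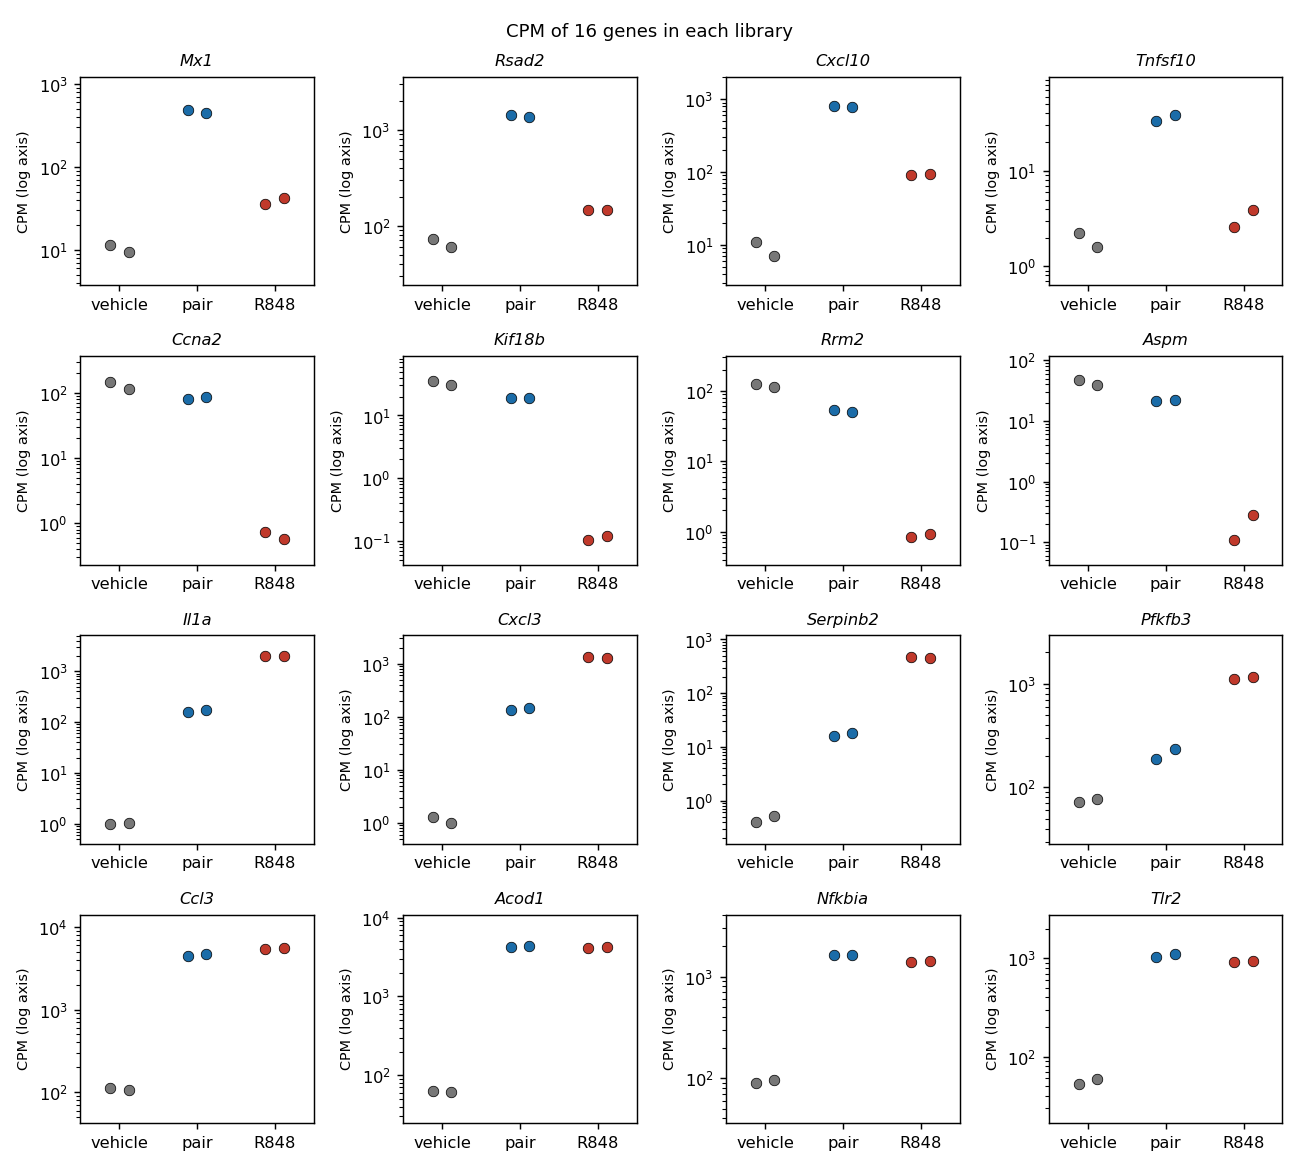
CPM (log axis, scaled to each gene) in the vehicle, ligand pair and R848 libraries, with 1 point per library, for 4 IFN-response genes (row 1), 4 cell cycle genes (row 2), 4 genes higher with R848 (row 3) and 4 genes with like levels in both treatments (row 4). The replicate libraries lie close together. In the first 12 genes, which were picked for large differences, the points of the ligand pair and of R848 do not overlap.

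Some strongly induced genes had like levels with both treatments. Of the 226 genes at least 8-fold above vehicle in both comparisons, 48 were called higher with R848 and 6 with the ligand pair, beside 3.86% and 16.9% of all genes, and for 29 the 95% interval of the difference lay within 0.5 of 0 on the log2 scale. Those with the highest CPM are described here. Ccl3, a ligand of CCR1, had 4514 and 4690.4 CPM with the ligand pair and 5406 and 5639 with R848 against 111 and 106 with vehicle (95% interval of the log2 difference -0.41 to -0.11). Acod1, the enzyme that makes itaconate, had 4284 and 4358 CPM with the ligand pair, 4112 and 4274 with R848 and 62.3 and 62.1 with vehicle (interval -0.20 to 0.29). Nfkbia, which encodes the NF-κB inhibitor IκBα, had 1619 and 1629 CPM with the ligand pair, 1386 and 1429.7 with R848 and 90.4 and 96.2 with vehicle (interval 0.06 to 0.35). All 3 rose more than 10-fold over vehicle with each treatment. Icam1, an adhesion molecule, had 1104 and 1069.7 CPM with the ligand pair and 1111 and 1207 with R848 (interval -0.22 to 0.04). Tlr2, the receptor of bacterial lipopeptides, had 1029 and 1110.0 CPM with the ligand pair and 923 and 937 with R848 (interval 0.01 to 0.39). Tnfrsf1b, Tnfaip2 and Rassf4 completed the 8 with the highest CPM, with intervals of -0.50 to -0.28, 0.16 to 0.47 and 0.03 to 0.22. On the centred scale the differences of Acod1, Nfkbia, Tnfaip2 and Rassf4 turned to below 0, at -0.34, -0.18, -0.07 and -0.26. Those of Ccl3 and Tnfrsf1b grew there to -0.65 and -0.77, past 0.5 and under 2-fold, so their like levels rest on the deposited scale.

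NF-κB subunits and feedback inhibitors were high in both treatments. Of 32 tested, 1 (3.13%) was higher with the ligand pair and 4 (12.5%) with R848, beside 16.9% and 3.86% of all genes (median log2 difference -0.25). Against vehicle, 23 were higher in each comparison, beside 8.12% of all genes with the ligand pair and 8.89% with R848. On the centred scale 9 were higher with R848. Dusp16, a phosphatase of JNK and p38, had 595 and 607 CPM with R848, 189 and 202 with the ligand pair and 25.6 and 25.6 with vehicle (log2 difference -1.62, SE 0.06, adjusted p = 4.88e-12). Zfp36l1, which destabilizes mRNA, had 39.7 and 39.3 CPM with R848 and 11.2 and 9.99 with the ligand pair, below its vehicle level of 55.1 and 53.8 (log2 difference -1.90, SE 0.09, adjusted p = 3.79e-11). Dusp5, a phosphatase of ERK, had 21.5 and 20.2 CPM with R848, near the 22.4 and 22.5 CPM of vehicle, and 6.58 and 7.39 with the ligand pair (log2 difference -1.58, SE 0.10, adjusted p = 8.51e-10). Zfp36l1 and Dusp5 were called below vehicle with the ligand pair, while with R848 their log2 differences from vehicle were -0.46 and -0.11, under 2-fold. Otud1, a deubiquitinase, was the member higher with the ligand pair, at 25.6 and 26.5 CPM against 4.25 and 4.65 (log2 difference 2.55, SE 0.09, adjusted p = 2.38e-12), and vehicle had 22.4 and 21.9.

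Few Toll-like receptors and adaptors were called. Of 39 tested, 4 (10.3%) were higher with the ligand pair and 1 (2.56%) with R848, beside 16.9% and 3.86% of all genes. The median log2 difference of 0.07 became -0.31 on the centred scale, where 1 and 2 were called. Tlr7 itself had 152 and 166 CPM with the ligand pair, 205 and 214 with R848 and 166 and 142 with vehicle. It was higher with R848 in every library but under 2-fold (log2 difference -0.40, SE 0.07, adjusted p = 0.00018, 95% interval -0.55 to -0.24). Cd14, a co-receptor for LPS and nucleic acids, had 2985 and 3136 CPM with R848, 1061 and 1124 with the ligand pair and 466 and 482 with vehicle (log2 difference -1.49, SE 0.04, adjusted p = 1.12e-13). Cd14 was above vehicle with both treatments, and R848 raised it further. Tlr9, the receptor of CpG DNA, had 11.2 and 13.2 CPM with the ligand pair and 3.88 and 3.70 with R848, and fell below its vehicle level of 17.5 and 16.1 in the call with R848 (log2 difference between the treatments 1.68, SE 0.11, adjusted p = 2.42e-09). Tlr3, the receptor of dsRNA, and Pld4, an endosomal exonuclease that degrades ssRNA, differed by 1.35 and 1.33 on the log2 scale, and neither was called on the centred scale.

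Several early transcription factors were higher with R848. Of 29 AP-1, EGR and other early factors, 2 (6.90%) were higher with the ligand pair and 8 (27.6%) with R848, beside 16.9% and 3.86% of all genes (median log2 difference -0.37, 1 and 11 on the centred scale). Fosl2, an AP-1 subunit, had 528 and 545 CPM with R848, 35.6 and 45.6 with the ligand pair and 66.8 and 71.1 with vehicle (log2 difference -3.74, SE 0.17, adjusted p = 2.03e-06). Fosl1, another subunit, had 15.98 and 16.01 CPM with R848 and 3.19 and 3.10 with the ligand pair, which was below the vehicle level of 8.92 and 8.60 (log2 difference -2.35, SE 0.13, adjusted p = 4.52e-10). Nr4a1, an orphan nuclear receptor, had 57.9 and 61.9 CPM against 5.45 and 7.53, and vehicle had 11 and 11.2 (log2 difference -3.22, SE 0.14, adjusted p = 2.19e-11). These 3 stood above vehicle with R848 in each library and below it with the ligand pair, where the fall was called for Fosl1 alone. Atf3, which restrains TLR-induced genes, went the other way, with 398 and 391 CPM with the ligand pair, 73.4 and 78.1 with R848 and 295 and 320.1 with vehicle (log2 difference 2.38, SE 0.07, adjusted p = 3.21e-12).

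Of 29 genes of inflammatory enzymes, proteases and their regulators, 15 (51.7%) were higher with R848 and 4 (13.8%) with the ligand pair, beside 3.86% and 16.9% of all genes (median log2 difference -1.18, 16 and 2 on the centred scale). Serpinb2, which encodes the plasminogen activator inhibitor PAI-2, had 475 and 447 CPM with R848, 15.8 and 17.9 with the ligand pair and 0.393 and 0.506 with vehicle (log2 difference -4.78, SE 0.42, adjusted p = 8.15e-06). Lcn2, which binds siderophores, had 499 and 564 CPM with R848 and 25.7 and 38.2 with the ligand pair (log2 difference -4.08, SE 0.31, adjusted p = 6.74e-06). Both were called above vehicle with either treatment. Mmp13, a collagenase, had 650.2 and 668 CPM with R848 and 42.7 and 50.5 with the ligand pair (log2 difference -3.83, SE 0.13, adjusted p = 4.16e-10). Mmp13 is also known from stromal cells, whose markers were present in the R848 libraries, and the part of those cells in the difference was not tested. Ptgs2, the inducible cyclooxygenase, had 8309 and 7791 CPM with R848, 2306 and 2393 with the ligand pair and 5.27 and 6.12 with vehicle. The urokinase gene Plau was one of the 4 higher with the ligand pair, with 66.6 and 56 CPM against 10.7 and 11.9, and both lay far below the 1885 and 1999 CPM of vehicle.

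Genes of glycolysis and hypoxia included many higher with R848. Of 26 tested, 9 were higher with R848 and 1 with the ligand pair, beside 3.86% and 16.9% of all genes (median log2 difference -0.75, 16 and 1 on the centred scale). Against vehicle, 10 were higher with R848 and 2 with the ligand pair, beside 8.89% and 8.12% of all genes. Pfkfb3, which makes the activator of phosphofructokinase, had 1096 and 1163 CPM with R848, 188 and 232 with the ligand pair and 71.5 and 77.3 with vehicle (log2 difference -2.43, SE 0.09, adjusted p = 4.29e-10). The prolyl hydroxylase gene Egln3, a target of HIF, had 22.8 and 22.9 CPM with R848 and 0.425 and 0.563 CPM with the ligand pair, which corresponds to 6 and 8 reads (log2 difference -5.55, SE 0.31, adjusted p = 3.24e-10). Bnip3, a mitophagy receptor and HIF target, had 54.01 and 50.8 CPM against 7.22 and 9.50 (log2 difference -2.66, SE 0.17, adjusted p = 1.77e-09). Egln3 and Bnip3 were called above vehicle with R848 alone. With the ligand pair Bnip3 also stood above its vehicle level of 4.60 and 5.96 CPM, by a log2 difference of 0.66, which is under 2-fold. Vegfa, the vascular growth factor, differed by -2.26, with 57.5 and 59.2 CPM with R848, 13.4 and 11.1 with the ligand pair and 45.8 and 48.3 with vehicle, so that it was called lower than vehicle with the ligand pair and not called with R848. Slc2a1, the glucose transporter GLUT1, had 581 and 622 CPM with R848 and 157 and 161 with the ligand pair. It too was called above vehicle with R848 alone. Hif1a, listed among the early factors, had 812 and 794 CPM with R848 and 205 and 206 with the ligand pair, where vehicle had 201 and 197 (log2 difference -1.96, SE 0.06, adjusted p = 1.42e-13). The member higher with the ligand pair was the transporter gene Slc2a3, whose 12.7 and 11.5 CPM stood above the 2.92 and 2.33 CPM of R848 and below the 26.8 and 23.9 CPM of vehicle.

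Lipid and macrophage identity genes moved singly. Of 30 cholesterol genes, 3 (10%) were higher with the ligand pair and 2 (6.67%) with R848, beside 16.9% and 3.86% of all genes (median log2 difference 0.13, -0.25 on the centred scale). Abca1, the efflux pump for cholesterol, had 294 and 306 CPM with R848, 65.05 and 70.8 with the ligand pair and 58.4 and 64.8 with vehicle (log2 difference -2.14, SE 0.06, adjusted p = 2.65e-13). Abcg1, the other efflux pump, went the opposite way, with 18.6 and 23.99 CPM with the ligand pair and 6.69 and 7.78 with R848, both below the 73.5 and 68.2 CPM of vehicle (log2 difference 1.55, SE 0.11, adjusted p = 2.98e-08). Dhcr7, the last enzyme of cholesterol synthesis, and Mylip, which degrades the LDL receptor, differed by 1.95 and 1.57. Of 34 macrophage identity genes, 5 (14.7%) were higher with the ligand pair and 2 (5.88%) with R848, near the shares of all genes (median 0.21, -0.17 on the centred scale). Pparg, a nuclear receptor of fatty acids, had 44.4 and 47.8 CPM with the ligand pair, 10.7 and 10.7 with R848 and 56 and 55.4 with vehicle (log2 difference 2.10, SE 0.07, adjusted p = 1.06e-12). With the ligand pair Pparg was near vehicle, and with R848 it was lower. Marco, a scavenger receptor, had 162 and 172 CPM with the ligand pair and 56.3 and 57.5 with R848 against 14.03 and 15.3 (log2 difference 1.55, SE 0.08, adjusted p = 7.61e-11). Ccr1, a receptor of Ccl3, had 32.9 and 31.7 CPM with R848 against 10.1 and 12.8. Of 34 lysosomal genes, 2 (5.88%) were higher with the ligand pair, beside 16.9% of all genes, and 0 with R848. They were Tfeb, a transcription factor of lysosomal genes, and Lipa, the lysosomal acid lipase (log2 differences 1.19 and 1.15). On the centred scale 0 differed. The next largest differences, of Ctsh and Naglu, were 0.99 and 0.73 and were not called.

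Some genes of antigen presentation were higher with the ligand pair. Of 25 tested, 8 were called higher with the ligand pair and 1 with R848, beside 16.9% and 3.86% of all genes, with a median log2 difference of 0.31 that was -0.07 on the centred scale, where the counts were 4 and 1. H2-Aa, an MHC class II chain, had 138 and 146 CPM with the ligand pair, 36.9 and 43.6 with R848 and 107 and 114 with vehicle (log2 difference 1.83, SE 0.08, adjusted p = 7.52e-10). H2-DMa, which loads peptide on class II, had 15.01 and 15.97 CPM against 5.47 and 5.36, and vehicle had 15.2 and 14.8 (log2 difference 1.52, SE 0.10, adjusted p = 2.23e-09). Both class II genes were called lower than vehicle with R848 and not called with the ligand pair. On the centred scale neither was called against vehicle with R848 (-0.86 for H2-Aa and -0.87 for H2-DMa). Psmb9, a subunit of the immunoproteasome, had 66.3 and 67.2 CPM with the ligand pair and 24.5 and 25.6 with R848 (log2 difference 1.41, SE 0.07, adjusted p = 4.82e-11). Slamf1 had 12.4 and 13.4 CPM with R848 and 1.13 and 1.97 with the ligand pair and was called higher with R848 with a pseudocount of 1 CPM (log2 difference -2.46, adjusted p = 3.41e-10) and not on the deposited scale.

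Pnp, the target of ulodesine, had 135 and 137 CPM with the ligand pair, 124 and 136 with R848 and 46.3 and 47.8 with vehicle. Its log2 difference between the treatments was 0.06 (95% interval -0.07 to 0.20) and turned to -0.32 on the centred scale, and it was called higher than vehicle in both comparisons, by 1.53 and 1.47. Of 29 genes of guanosine and purine handling, 7 were higher with the ligand pair and 1 with R848 (24.1% and 3.45%, near the 16.9% and 3.86% of all genes, with a median log2 difference of 0.51 and 5 and 1 calls on the centred scale). Samhd1, which hydrolyses dNTPs, had 520.0 and 543 CPM with the ligand pair, 193 and 211 with R848 and 271 and 271 with vehicle (log2 difference 1.39, SE 0.05, adjusted p = 2.55e-12). Dck, which phosphorylates deoxynucleosides, had 126 and 123 CPM with the ligand pair and 44.5 and 47.9 with R848, and vehicle had 113 and 99.6 (log2 difference 1.43, SE 0.08, adjusted p = 7.42e-10). Against vehicle on the deposited scale, Samhd1 was called with neither treatment, and Dck was called lower with R848 alone. On the centred scale Samhd1 was called higher than vehicle with the ligand pair (log2 difference 1.18), and Dck was not called with R848 (-0.61). Nt5c3, a pyrimidine 5′-nucleotidase, had 83.7 and 82.2 CPM against 29.1 and 29.1 (log2 difference 1.51, SE 0.08, adjusted p = 1.35e-10). Gda, the guanine deaminase that acts on guanine after PNP has freed it, was the member higher with R848, with 141 and 136 CPM against 46.4 and 46.3 with the ligand pair and 46.9 and 40.2 with vehicle (log2 difference -1.58, SE 0.08, adjusted p = 1.36e-10).

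**Figure D5:**
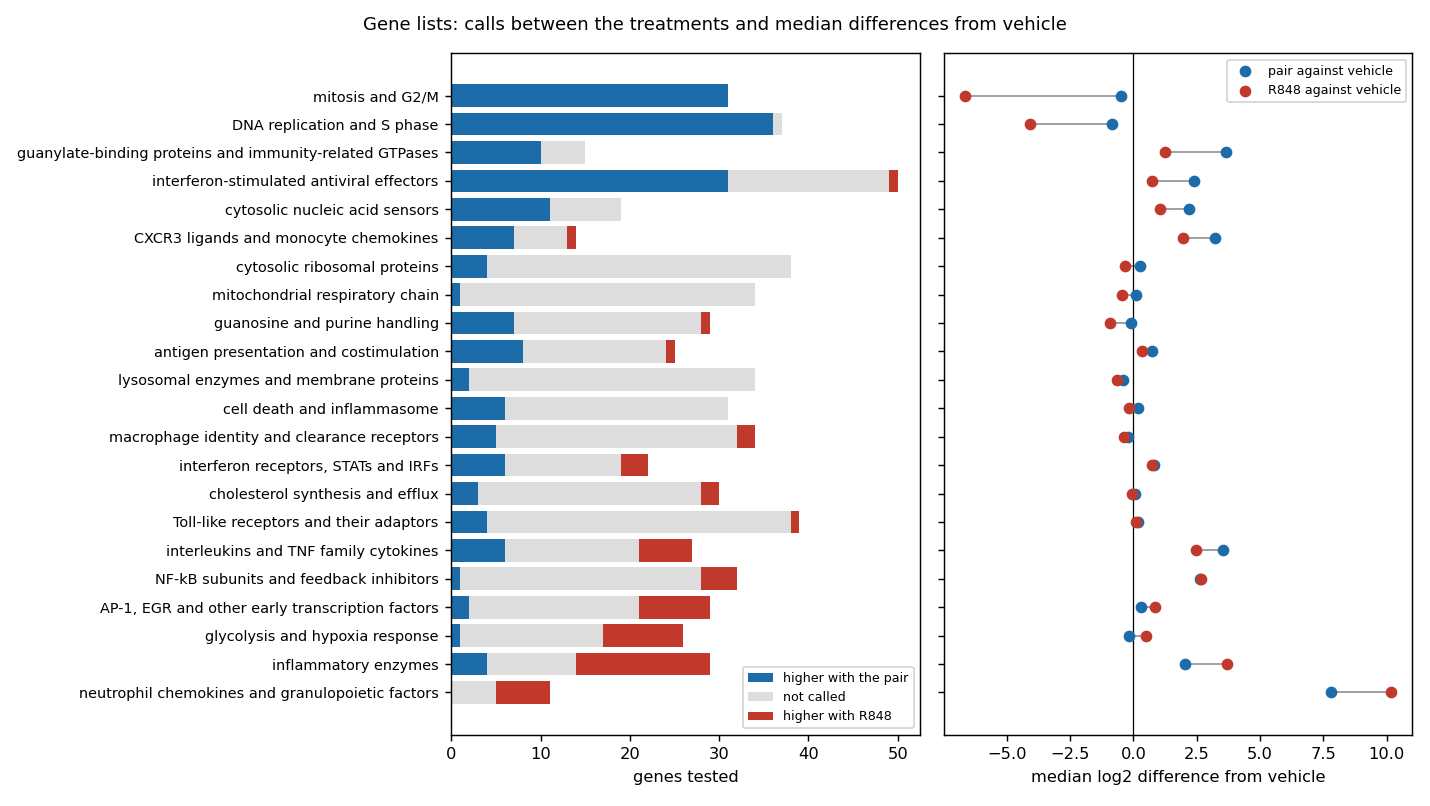
Number of genes tested in each of 22 lists that were called higher with the ligand pair, not called, or called higher with R848 (left), and the median log2 difference from vehicle with each treatment (right, on the deposited scale, with the vehicle libraries shared). The cell cycle lists are called higher with the ligand pair in 67 of 68 genes, and for mitosis and G2/M the medians against vehicle are -0.48 with the ligand pair and -6.64 with R848.

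Cell cycle genes were higher with the ligand pair. Of 31 mitosis and G2/M genes tested, all 31 were higher with the ligand pair (median log2 difference 5.87, 31 also on the centred scale), and of 37 DNA replication and S phase genes 36 were (median 3.31, 33 on the centred scale). The share of all genes was 16.9%. Against vehicle, all 31 mitosis genes were lower with R848 and 3 with the ligand pair, and the 37 S phase genes were all lower with R848 and 16 with the ligand pair. Among all genes, 30.3% were lower with R848 and 14.3% with the ligand pair. On the centred scale, 31 mitosis and 36 S phase genes were lower with R848 and 0 and 13 with the ligand pair. The median log2 differences from vehicle were -6.64 with R848 and -0.48 with the ligand pair for mitosis, and -4.07 and -0.85 for S phase. Ccna2, cyclin A2, had 79.9 and 86.95 CPM with the ligand pair, 0.744 and 0.582 with R848 and 144 and 115 with vehicle (log2 difference 6.99, SE 0.17, adjusted p = 5.79e-09). Kif18b, a kinesin of the spindle, had 18.7 and 18.9 CPM with the ligand pair and 34.9 and 30.6 with vehicle, and 2 and 4 reads with R848 (log2 difference 7.36, SE 0.13, adjusted p = 1.75e-15). Among called genes with at least 10 CPM in both libraries of the ligand pair, the 12 largest differences were of this kind, from Anln at 6.97 to Pbk at 8.17, and each had at most 19 reads in either R848 library. They were Pbk, Pimreg, Neil3, Kif14, Kif18b, Knl1, Spag5, Hmmr, Rad51ap1, Ccna2, Aspm and Anln, genes of the spindle, cytokinesis and DNA repair. At such levels the size of the difference depends on the pseudocount, and with 1 CPM that of Ccna2 was 5.67 and that of Pbk 4.48. In S phase, Rrm2, a subunit of ribonucleotide reductase, had 52.6 and 49.7 CPM with the ligand pair, 0.85 and 0.919 with R848 and 124 and 114 with vehicle (log2 difference 5.86, SE 0.10, adjusted p = 2.24e-15). Mcm10, Clspn and Cdc45, which act at the replication fork, differed by 6.61, 5.95 and 5.18. The proliferation marker Mki67 had 387 and 421 CPM with the ligand pair, 123 and 121 with R848 and 746 and 655 with vehicle, so it kept a higher share of its vehicle level in the R848 libraries than the genes above. The cell cycle genes move with the features that set the R848 libraries apart, and the part of culture in the difference was not tested.

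The promoter of Kif18b is shown with its CCAAT boxes, the element that NF-Y binds in many promoters of the G2/M genes, in capitals. The window is chr11:102925125-102925374 on the minus strand.
Kif18b: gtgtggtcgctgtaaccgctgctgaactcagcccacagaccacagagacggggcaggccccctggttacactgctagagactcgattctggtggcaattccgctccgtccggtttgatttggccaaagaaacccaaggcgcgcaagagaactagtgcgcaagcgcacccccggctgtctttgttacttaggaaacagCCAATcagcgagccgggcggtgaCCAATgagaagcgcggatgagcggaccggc
CCAAT, searched on both strands, was in 21 of the 27 mitosis and G2/M genes with a window (77.8%) and in 37.5% of all genes with one. The letters TTTGAA, the core of the cell cycle homology region (CHR), were in 9 of the 27 (33.3%) and in 18.3% of all. The letters TGANTCA of the AP-1 site were in 0 of the 27 and in 7.82% of all. Among the inflammatory enzymes, TGANTCA was in 5 of the 10 windows of genes higher with R848 and in 0 of the 9 of genes not called. Among the antiviral effectors it was in 6 of the 24 windows of genes higher with the ligand pair and in 2 of the 15 of genes not called. In the neutrophil chemokine list it was in 1 of 5 windows of genes higher with R848 and in 1 of 3 of genes not called. A κB site was in 1 of the 10 windows of inflammatory enzymes higher with R848 and in 2 of the 9 of those not called. Among the antiviral effectors it was in 6 of the 24 windows of genes higher with the ligand pair and in 4 of the 15 of genes not called. Neither site thus marked the genes higher with R848 across the lists.

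Genes of the extracellular matrix and of contractile stromal cells were higher with R848. The 12 largest differences among called genes with at least 10 CPM in both R848 libraries were of Bgn, Col12a1, Col6a1, Ccn2, Col1a2, Cyp1b1, Sparc, Postn, Fbln2, Tagln, Col5a1 and Col1a1. Bgn, which encodes the proteoglycan biglycan, had 38.8 and 39.8 CPM with R848 and 0 reads in both libraries of the ligand pair, which makes it at least 186-fold higher against a floor of 3 reads per library. Col12a1 and Col6a1, collagen chains, also had 0 reads with the ligand pair and were at least 63.4-fold and 60.9-fold higher by the same floor, with 14.1 and 12.7 CPM for Col12a1 and 11.8 and 13.99 CPM for Col6a1 in the R848 libraries. Col1a1, the main chain of fibrillar collagen, had 51.6 and 58.3 CPM with R848, 5 and 2 reads with the ligand pair and 2 and 7 reads with vehicle. The other 8 had at most 4 reads in a library of the ligand pair and between 11.9 and 40.9 CPM in the R848 libraries. Of the 10 fibroblast markers, 7 passed the filter, 5 were called higher with R848 and 0 with the ligand pair, beside 3.86% and 16.9% of all genes. Of the 58 genes seen in the R848 libraries alone, 18 were among the 462 called. Genes near 0 in the other libraries could pass the filter only through the R848 libraries, so the direction of such calls was set by the choice. These calls add nothing to the levels given above. When genes with 3 reads or fewer in both libraries of either treatment were left out, 1935 genes were higher with the ligand pair and 413 with R848.

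A few genes lay on opposite sides of vehicle. There were 21 genes called higher than vehicle with one treatment and lower with the other, 11 of them higher with the ligand pair. On the centred scale there were 24, of which 2 were higher with the ligand pair and 22 with R848, and 11 genes were on both scales. Of the 9 with at least 10 CPM, Bgn and Col12a1 are described above, and their 0 reads with the ligand pair stand beside vehicle levels of 1 to 3 reads. Rasgef1b, a guanine nucleotide exchange factor of Ras family GTPases, had 468 and 416 CPM with the ligand pair, 194 and 187 with vehicle and 67.4 and 66.5 with R848 (log2 difference between the treatments 2.72, SE 0.06, adjusted p = 4.85e-15). Fam72a had 28.03 and 27.9 CPM with the ligand pair, 5.22 and 4.21 with vehicle and 1.70 and 1.87 with R848 (log2 difference 3.97, SE 0.15, adjusted p = 4.38e-12). Sp110, an IFN-induced nuclear body protein, had 35.6 and 36.2 CPM with the ligand pair, 16.3 and 15.7 with vehicle and 8.07 and 7.81 with R848 (log2 difference 2.18, SE 0.09, adjusted p = 1.83e-11). Nectin4, an adhesion molecule, and Aldh1b1, a mitochondrial aldehyde dehydrogenase, had the same order and differed by 2.30 and 2.07. On the centred scale these 5 genes were higher than vehicle with the ligand pair but not called with R848, so that none stayed on opposite sides. In the reverse order, Irs2, an adaptor of the insulin receptor, had 6.09 and 8.72 CPM with the ligand pair, 28.1 and 25.7 with vehicle and 50.1 and 57.8 with R848 (log2 difference -2.88, SE 0.14, adjusted p = 2.7e-10). Nr1d1, which encodes the circadian repressor REV-ERBα, had 1.20 and 1.06 CPM with the ligand pair, 3.87 and 2.92 with vehicle and 20.8 and 18.2 with R848 (log2 difference -4.11, SE 0.21, adjusted p = 1.41e-10).

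Few housekeeping genes were called. Of 38 ribosomal protein genes, 4 (10.5%) were higher with the ligand pair (Rpl35, Rps20, Rpl30 and Rps18, by 1.01 to 1.07) and 0 with R848. Of 34 respiratory chain genes, 1 (2.94%) was higher with the ligand pair, Ndufb8 (1.05), beside 16.9% of all genes. The list medians were 0.60 and 0.57, beside 0.31 for all genes. On the centred scale they were 0.21 and 0.19, beside -0.07, with 0 calls in either list. The difference was above 0 in 34 of the 38 ribosomal and in all 34 respiratory chain genes. The ribosomal calls fell to 0 without replicate 1 of R848. Ndufv2, Ndufa4 and Sdhb, the next in size among the respiratory chain genes, had log2 differences of 0.99, 0.94 and 0.84. Of 31 genes of cell death and the inflammasome, 6 (19.4%, near the 16.9% of all genes) were higher with the ligand pair and 0 with R848 (median 0.24, -0.14 on the centred scale, with 2 and 2 calls). Bid, which links death receptors to mitochondria, had 39 and 45.2 CPM with the ligand pair, 9.29 and 10.8 with R848 and 58.02 and 63.6 with vehicle (log2 difference 2.07, SE 0.09, adjusted p = 2.65e-11). Ripk2, the kinase of NOD receptors, had 136 and 141 CPM with the ligand pair and 63.6 and 70.8 with R848, both above the 25.9 and 25.3 CPM of vehicle (log2 difference 1.05, SE 0.07, adjusted p = 5.59e-09). Mlkl, the effector of necroptosis, differed by 1.19, and neither it nor Ripk2 was called on the centred scale.

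Lists of markers of other cells varied in level between the treatments. The summed CPM of 10 neutrophil markers was 9.98 and 9.99 with the ligand pair and 22.99 and 25.2 with R848, mostly from S100a8, and that of 10 T and NK cell markers was 12.9 and 11.4 against 4.94 and 5.02. The endothelial list had sums of 144 and 144 against 64.8 and 70.2, nearly all from Kdr and Vwf, while Pecam1 had at most 5 reads in a library of the ligand pair. The B cell list came mostly from Blnk and the conventional dendritic cell list from Itgax, which macrophages also express, and Flt3 had 0 reads with the ligand pair. Sums of the B cell, plasmacytoid and conventional dendritic cell lists were 192 and 189, 575 and 582, and 71.1 and 67.9 CPM with the ligand pair. With R848 they were 111 and 114, 553 and 579, and 79.1 and 83.5 CPM. Few members passed the filter. Of these, 2 of 4 neutrophil, 2 of 3 T and NK cell, 1 of 4 endothelial and 1 of 3 B cell markers were called higher with the ligand pair. With R848, 1 neutrophil, 1 endothelial and 1 of 5 plasmacytoid dendritic cell markers were called higher. The shares of all genes were 16.9% and 3.86%. Of the 10 neutrophil markers, 7 had 0 reads in both R848 libraries and 3 in both libraries of the ligand pair, so these calls do not follow the neutrophil sums. Of the 10 macrophage markers, 1 was called higher with the ligand pair and 2 with R848, beside the same shares. Of 2 conventional dendritic cell markers 0 differed. The part of other cells in the differences above was not tested.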

How the data were processed

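RNA from 10 BMDM libraries, 2 in each of 5 groups, was sequenced (read length 50 bp). Mapping by the authors was with STAR 2.27a after bcl2fastq 2.19.1.403 demultiplexing (versions per the submitters' processing notes), and counting was on Ensembl 97 genes (GRCm38). They deposited CPM plus an offset of 0.0001, made in Partek Flow. The counting rule and strand setting are not given in the sources used here, so reads of overlapping or antisense genes cannot be told apart. The deposited table names genes by Ensembl ID, and 55480 of 55573 IDs were given a symbol from GENCODE M21.

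Deposited values were taken as log2 CPM with the offset kept. All 10 libraries were fitted by group with limma 3.58.1 (statmod 1.5.0, R 4.3.3; trend and robust moderation), with Benjamini-Hochberg adjustment over the 11978 genes tested. A gene was called at an adjusted p under 0.05 and at least 2-fold. Log2 differences are on the log2(CPM + 0.0001) scale. Reads were read back after the offset was subtracted, where 100.0% of low values came within 0.1 of a whole read. The script was tested on simulated data. Promoter windows came from RefSeq (GRCm38.p6).

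The named genes were the 12 largest called differences in each direction with at least 10 CPM, the 4 largest absolute differences in each gene list at 10 CPM or more, 6 set genes (Tlr7, Pnp, Il6, Ifnb1, Tnf and Cxcl10), the 8 of highest CPM among shared induced genes, and up to 10 genes on opposite sides of vehicle. Ptgs2, Plau, Slc2a1, Slc2a3, Hif1a, Mki67, the effector Ifitm2 and the markers of other cells were named after their values were seen. Some genes that the rule names are not reported here. The members and gene lists were chosen with earlier results of these data known. The alternatives tried were other pseudocounts, filters, centring, moderation, fits to the groups compared, a replicate block and leaving out each library.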

Additional observations from a re-analysis of the deposited data

How the results depend on the processing

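Of 110 counts of genes under the alternatives, 104 stayed within 1.5 times the count reported and 6 did not. With a pseudocount of 1 CPM, 1278 genes were higher with the ligand pair, and on the centred scale 1194. Genes higher with R848 numbered 799 without a filter and 852 on the centred scale, where R848 against vehicle gave 1792 higher and 2107 lower genes. Leaving out 1 library at a time gave 2376 to 2554 genes for the ligand pair against R848 (1941 to 2134 higher, 420 to 471 lower), 2584 to 2696 for the ligand pair against vehicle and 4575 to 4757 for R848 against vehicle. Without genes at 3 reads or fewer in both libraries of a treatment, an alternative chosen after the data were seen, 1935 and 413 genes differed. With replicate number as a replicate block, 2478 genes differed between the treatments (2020 higher and 458 lower), and 2679 and 4688 against vehicle. The block ended the calls of Cyp1b1 and Fbln2. The correlation of same-numbered deviations over 8459 genes was -0.0101 between the ligand pair and R848 and -0.286 to 0.109 over the 10 pairs of groups, so nothing beyond the number was taken to pair the libraries.

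Of 1547 values of 129 named genes, 1489 kept their direction and their side of an adjusted p of 0.05, 31 lost that p, 22 gained it and 5 reversed, all 5 on the centred scale, at -0.32 for Pnp, -0.34 for Acod1, -0.067 for Tnfaip2, -0.26 for Rassf4 and -0.18 for Nfkbia. The lost p fell on 9 genes, of which 7 are stromal genes with reads at or near 0 with the ligand pair (Ccn2, Col1a2, Cyp1b1, Sparc, Fbln2, Tagln and Col5a1). Counted with the 2-fold limit, 20 of the 108 named genes called lost the call under at least 1 alternative. There were 13 on the centred scale, among them Ccl2, Tlr3, Pld4, Tfeb, Lipa, Mlkl, Ripk2, Ndufb8 and the 4 ribosomal protein genes, and with a pseudocount of 1 CPM 3 were lost, Rpl35, Rpl30 and Rps18. For Ccn2, Col1a2, Cyp1b1, Fbln2 and Tagln the call was lost when 1 library was left out, replicate 1 or 2 of either treatment depending on the gene, while the direction held. Without R848 replicate 2, Ifnb1 was called higher with the ligand pair, Ifitm2 was not called and 2 respiratory chain genes were called in place of 1. Without R848 replicate 1, 0 of the ribosomal protein genes were called in place of 4, and Ripk2 was not called. Without replicate 1 of the ligand pair, 2 ribosomal protein genes were called, Ifitm2 was not, 1 early transcription factor was higher with the ligand pair in place of 2, and 1 cell death gene was higher with R848 in place of 0. Without replicate 2 of the ligand pair, 2 monocyte chemokine genes were higher with R848 in place of 1. Il6, Csf3, Il19, Slamf1 and Ifnb1 were also called with a pseudocount of 0.1 CPM and when the 4 libraries compared were fitted alone. The count test was not run, since the values as deposited, with the offset, are not whole multiples of a step. Depth limits what can be said of genes under 3 reads a library, and 2 libraries a group limit the precision of every difference.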
